A study of Mus musculus with 12 samples.

Results

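The 7 genes described here encode colony-stimulating factors and their receptors: the ligands Csf1 and Il34 and the receptor subunits Csf1r, Csf2ra, Csf2rb, Csf2rb2 and Csf3r. They were chosen by symbol, with earlier results of these data known. All 7 were found among the 36528 gene numbers of the deposited tables. RNA was sequenced from Cd11b-positive myeloid cells sorted from the brains of male mice aged 6 months. A group of 6 libraries came from mice with the hMAPT-P301S transgene, a human tau gene with a mutation known from inherited frontotemporal dementia (P301S). The other 6 came from littermates without the transgene (NonTg). No treatment is given in the labels for either group. The labels used here name neither the promoter that drives the transgene nor the strain, and they tie no library to 1 animal, so every p-value here reflects how these libraries scatter, which may be technical.

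Csf1r is a receptor tyrosine kinase of mononuclear phagocytes, and microglia depend on its signal to survive and to divide. Csf1 and Il34 both bind it, and in the brain Il34 is known as a neuronal product. Csf2ra is the ligand-binding subunit for granulocyte-macrophage colony-stimulating factor and pairs with the signalling subunit Csf2rb, which also serves the interleukin-3 and interleukin-5 receptors. Mice have a second, closely similar subunit, Csf2rb2, that serves interleukin-3. Csf3r is the receptor for granulocyte colony-stimulating factor and is best known from neutrophils.

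Csf1 was about 11.0 times as abundant in P301S as in NonTg, and Csf2ra was 2.37 times as abundant. These were the 2 members of the 6 tested that rose, and none fell, at an adjusted p under 0.05 in the fit over 10022 genes. Across all tested genes 3.87% were called, 2.37% as higher and 1.5% as lower. In the same 2 members every P301S library lay above every NonTg library, a pattern seen in 2.24% of all tested genes, while 1.05% lay wholly below. Csf1r, Csf2rb, Csf2rb2 and Csf3r did not pass, and Il34 had 8 counts in all 12 libraries and was not tested. The median log2 fold change of the 6 tested members was 0.52, beside -0.02 over all tested genes.

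The proximal promoter of Csf1 is shown because Csf1 had the larger fold change of the 2 members that rose. The line gives the 250 bases before the annotated start (RefSeq, GRCm38.p6, minus strand, chr3:107760470-107760719), with matches to any of 10 searched motifs in capitals.
Csf1: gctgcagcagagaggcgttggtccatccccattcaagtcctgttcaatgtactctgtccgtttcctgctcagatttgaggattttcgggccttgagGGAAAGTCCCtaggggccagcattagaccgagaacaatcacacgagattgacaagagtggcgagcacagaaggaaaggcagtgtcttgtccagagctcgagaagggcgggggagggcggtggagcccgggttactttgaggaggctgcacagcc
Both strands were searched. The capitals mark a match to a 10-letter NF-kB motif on the opposite strand, with its first base at position -154 from the start. Of 32851 promoter windows of this length, 1.41% held that motif. The other motifs searched had no match in this window. They were GAGGAA (PU.1 core, 23.3% of windows), TTNCNNAA (C/EBP, 36.8%), TGANTCA (AP-1, 6.75%), TTCNNNGAA (STAT, 7.02%), the interferon response element (2.98%), CACGTG (E-box, 6.02%), a further NF-kB form (4.29%), TGTGGT (RUNX, 14.0%) and GCGTGGGCG (EGR, 0.536%). A match is a run of letters and was not tested as a site.

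The pair Csf2rb and Csf2rb2 is shown because only uniquely aligned reads were counted and these neighbours share much of their sequence. Their coding sequences (GENCODE M21, GRCm38) were identical at 2505 of 2631 aligned positions, 95.2%, and the longest identical run was 242 bases. Of the 50-base windows of the Csf2rb transcript 18.4% occurred exactly in a transcript of another gene, and of the Csf2rb2 transcript 19.5%, with 892 windows shared by the pair. Among the stretches of 120 bases with no difference is the following, at chr15:78348577-78348696 in exon 15 of Csf2rb (plus strand) and chr15:78284752-78284871 in exon 14 of Csf2rb2 (minus strand), coding positions 2083 to 2202 of each.
Csf2rb and Csf2rb2: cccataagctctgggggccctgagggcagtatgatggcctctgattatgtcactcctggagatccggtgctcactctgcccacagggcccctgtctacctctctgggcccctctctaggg
The stretch of 120 bases with most differences, 22, began at coding position 309 of Csf2rb (chr15:78338898-78340471, exons 5 and 6) and 312 of Csf2rb2 (chr15:78292838-78294433, exons 4 and 5). Capitals mark the differing bases.
Csf2rb: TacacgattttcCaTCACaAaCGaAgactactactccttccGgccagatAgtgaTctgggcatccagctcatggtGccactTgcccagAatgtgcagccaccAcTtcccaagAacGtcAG
Csf2rb2: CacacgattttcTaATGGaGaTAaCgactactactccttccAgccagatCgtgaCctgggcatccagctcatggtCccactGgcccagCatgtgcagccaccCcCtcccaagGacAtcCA
The read length is not given in the sources used here, so the share of reads lost to this likeness was not measured. No 50-base window of the Csf1 or Csf2ra transcript occurred in another gene. For Csf1r the share was 17.7%, all with the neighbouring gene Hmgxb3, for Csf3r 11.5%, mostly with 1 other gene, and for Il34 1.57%. Transcripts were searched on either strand, and genome positions were not compared. Windows where annotated genes overlap thus cannot be told apart from windows repeated elsewhere in the genome.

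Total counts per library ranged from 1196069 to 4145069. All 11 homeostatic microglial markers had counts, and their summed level was 8743 to 11937 counts per 1000000 (CPM, on library sizes scaled by TMM) in NonTg and 3764 to 6062 in P301S. Itgam, which encodes the sorted Cd11b protein, measured 1581 to 2287 CPM in NonTg and 1049 to 1380 in P301S. Mitochondrial genes took 10.0% to 19.2% of counts in NonTg and 15.0% to 32.1% in P301S. Malat1 took 12.4% to 19.2% and 7.82% to 10.6%, without overlap, so its part cannot be told apart from genotype. In bulk RNA, fewer cells of a type and less RNA per cell cannot be told apart.

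**Figure D1:**
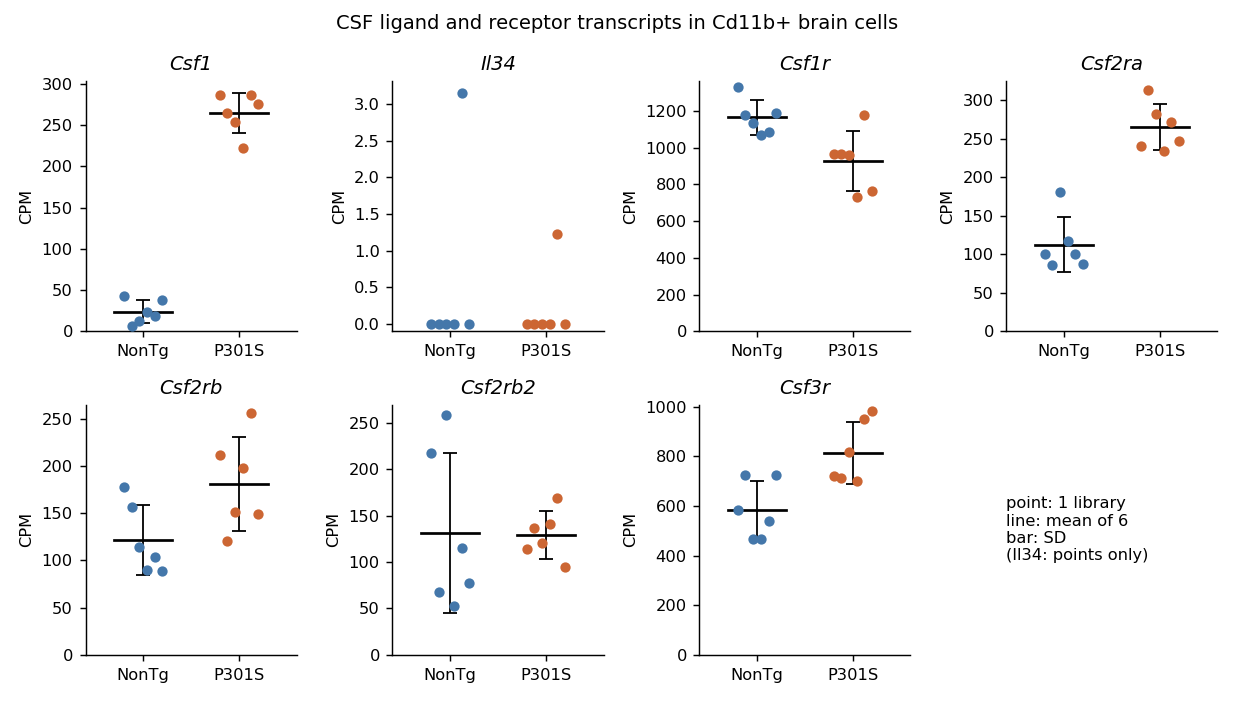
CPM of each of the 7 genes (vertical axis, linear) in the 6 NonTg and 6 P301S libraries. Points are libraries, lines are means and bars are SD. Csf1 and Csf2ra are the genes whose groups do not overlap, and Csf1r is lower in 5 of 6 P301S libraries than in any NonTg library.

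Csf1 (Entrez 12977, chromosome 3, 107741048 to 107760469 of GRCm38.p6) is the ligand that many cell types make for Csf1r. In NonTg it measured 6.87 CPM in the lowest library, 20.9 at the median and 43.0 in the highest, from 14 to 146 counts. In P301S the lowest, median and highest libraries held 223, 270 and 287 CPM, from 355 to 1044 counts. The groups were far apart, and the P301S libraries were much closer to one another than the NonTg libraries on a relative scale. The means were 23.7 ± 14.2 and 265 ± 24.4 CPM (SD, n = 6 each). The log2 fold change was 3.46 ± 0.34 (SE, edgeR quasi-likelihood test, adjusted p = 8.27e-08), an 11.0-fold difference with a 95% interval of 6.94 to 17.4. By p it ranked 9 among the 10022 genes, and by log2 fold change 39.

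Within NonTg the 2 libraries with most Csf1 were NonTg 1 at 43.0 CPM and NonTg 6 at 38.1 CPM, and the other 4 held 22.9 CPM or less. The same 2 libraries had the largest summed level of 16 disease-associated microglial genes, 2326 and 2207 CPM, against 1445 to 1658 CPM in the other 4. In P301S that sum was 7602 to 9928 CPM. NonTg 1 stood apart in Clec7a, a pattern receptor gene of that program, at 24.5 CPM against 1.83 CPM or less in the other NonTg libraries. Without NonTg 1 the log2 fold change of Csf1 was 3.72.

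The libraries P301S 1 and P301S 6 had mitochondrial shares of 15.0% and 18.7%, inside the NonTg range. Their Csf1 levels, 287 and 276 CPM, were among the 3 highest of the group. With mitochondrial genes and Malat1 left out before scaling, the log2 fold change was 3.46. That refit removed only 37 mitochondrial genes and Malat1, so it cannot show what library quality adds. The part of the mitochondrial share in the Csf1 level was not tested.

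Csf1 is also made by glia other than microglia. Summed astrocyte markers (6 of 6 with counts) were 121 to 671 CPM in NonTg and 149 to 688 in P301S, and summed oligodendrocyte markers (6 of 6) 179 to 277 and 177 to 473. Both ranges overlapped between genotypes. Gfap, an intermediate filament gene of reactive astrocytes, was the marker of these lists that rose, from 0.763 to 5.92 CPM in NonTg to 10.8 to 22.5 in P301S (log2 fold change 2.64, edgeR adjusted p = 0.0199). The part of such transcripts in the Csf1 level was not tested. Endothelial markers summed to 2.37 to 108 CPM in NonTg and 6.08 to 25.3 in P301S, with Cldn5 at 0 in all libraries.

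Il34 (Entrez 76527, chromosome 8, 110741829 to 110805949), the second ligand of Csf1r, was detected in 1 library of each group. NonTg 5 and P301S 5 had 4 counts each, 3.16 and 1.23 CPM, and the other 10 libraries had none. A count of 0 allows up to 3 counts, which is 0.783 to 2.67 CPM in a library. No difference was detectable at this depth. Summed neuronal markers were 64.9 to 167 CPM in NonTg and 25.4 to 148 in P301S.

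Csf1r (Entrez 12978, chromosome 18, 61105572 to 61131139) was the most abundant of the 7 genes per length in 11 of 12 libraries. Its lowest, median and highest NonTg libraries held 1071, 1159 and 1333 CPM. The P301S libraries held 729, 964 and 1176 CPM. In 5 of 6 P301S libraries the level was below the lowest NonTg library, and P301S 5 at 1176 CPM lay inside the NonTg range. The log2 fold change was -0.33 ± 0.16 (SE), with a 95% interval of -0.64 to -0.02 before adjustment, and did not pass (edgeR adjusted p = 0.308). Without P301S 5 it was -0.41 with an adjusted p of 0.223. Over 21 alternative settings the log2 fold change stayed between -0.41 and -0.25 and the adjusted p between 0.170 and 0.538.

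Csf2ra (Entrez 12982, chromosome 19, 61217191 to 61228461) rose in P301S. In NonTg its lowest, median and highest libraries held 85.5, 100 and 181 CPM. In P301S these were 235, 260 and 313 CPM. No library of either group reached the range of the other, and NonTg 3 at 181 CPM was the nearest, the next NonTg library holding 118 CPM. The means were 112 ± 35.8 and 265 ± 30.0 CPM (SD, n = 6 each). The log2 fold change was 1.25 ± 0.23 (SE, edgeR adjusted p = 9.01e-04), a 2.37-fold difference with a 95% interval of 1.74 to 3.23, and 1.44 without NonTg 3. In P301S 1 and P301S 6, whose mitochondrial shares were inside the NonTg range, Csf2ra measured 241 and 247 CPM.

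Csf2rb (Entrez 12983, chromosome 15, 78325800 to 78351001), the partner subunit of Csf2ra, gave overlapping groups. The NonTg libraries held 89.0, 109 and 178 CPM at the lowest, median and highest, and the P301S libraries 120, 174 and 256 CPM. In 3 of 6 P301S libraries the level was above all NonTg libraries. The log2 fold change of 0.57 ± 0.25 (SE) did not pass (edgeR adjusted p = 0.252).

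Csf2rb2 (Entrez 12984, chromosome 15, 78282507 to 78305721) had almost the same mean in both groups, 131 ± 86.1 CPM in NonTg and 129 ± 25.9 in P301S (SD, n = 6 each). Its NonTg libraries spread from 52.7 to 259 CPM, with NonTg 1 at 217 and NonTg 3 at 259 CPM and the other 4 at 115 CPM or less. The P301S libraries spread from 94.1 to 169 CPM and lay inside the NonTg range. The log2 fold change was -0.02 ± 0.33 (SE, edgeR adjusted p = 0.985), with a 95% interval of -0.66 to 0.61, and its sign turned under 10 of 21 settings.

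Of the counts of Csf2rb and Csf2rb2 together, Csf2rb2 held 30.2% to 69.5% in NonTg libraries and 34.9% to 53.1% in P301S libraries. In NonTg 3 the share was 69.5% (95% Wilson interval 64.9% to 73.7%, 419 counts), and in NonTg 2 it was 30.2% (26.6% to 34.0%, 587 counts). Those intervals do not meet, so the NonTg libraries differed by more than counting error. The group means were 48.5% ± 13.9 and 42.1% ± 6.27 (SD, n = 6 each). Intervals cover counting error only, since reads were counted without molecular identifiers.

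**Figure D2:**
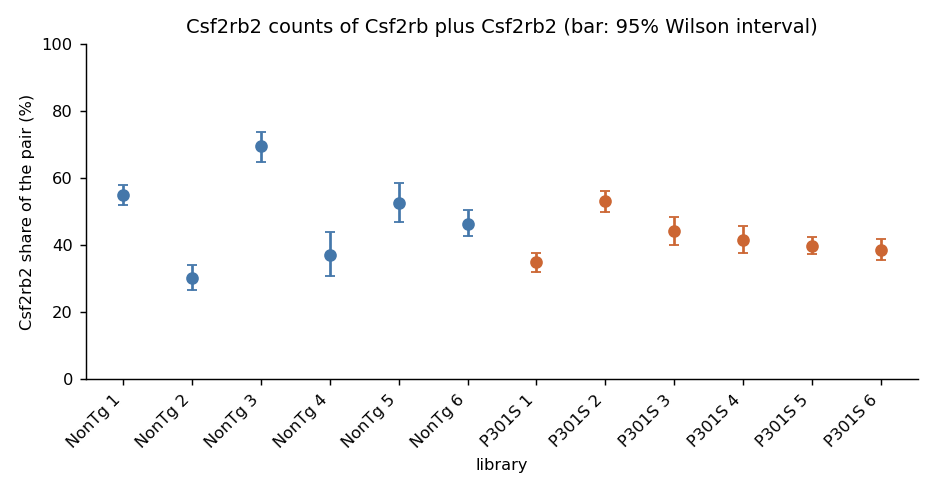
Share of Csf2rb2 in the summed counts of Csf2rb and Csf2rb2 (vertical axis, percent) in each library, with 95% Wilson intervals. NonTg 3 is the highest at 69.5% and NonTg 2 the lowest at 30.2%, and the P301S libraries lie between them.

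Csf3r (Entrez 12986, chromosome 4, 126023441 to 126044975) was the second most abundant of the 7 genes per length in 11 of 12 libraries. In NonTg it measured 467, 562 and 725 CPM in the lowest, median and highest library, and in P301S 699, 769 and 983 CPM. All 6 P301S libraries were above 4 of the NonTg libraries, and 3 were above all of them. The log2 fold change was 0.48 ± 0.18 (SE), with a 95% interval of 0.13 to 0.82 before adjustment, and did not pass (edgeR adjusted p = 0.140, and at most 0.302 over 21 settings). Neutrophil markers were low beside it. Their sum over 12 genes was 1.78 to 90.0 CPM in NonTg and 1.56 to 27.8 in P301S. Ly6g was at 0.89 CPM or less in NonTg and 3.14 or less in P301S, and Elane had 1 count in all 12 libraries. Other markers of the list were higher. In single NonTg libraries Ltf reached 67.1 CPM, Mmp8 37.4 and S100a9 29.1. In P301S S100a9 reached 18.8 CPM. P301S 6, the library with most Csf3r, had a neutrophil sum of 8.99 CPM. In NonTg 6 and NonTg 2, each with 725 CPM of Csf3r, the sums were 14.1 and 56.9 CPM. NonTg 3, the library with least Csf3r at 467 CPM, had a sum of 1.78 CPM. The part of neutrophil transcripts in the Csf3r level was not tested.

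Monocyte markers (9 of 9 with counts) summed to 25.6 to 326 CPM in NonTg and 19.7 to 76.8 in P301S. The highest sum was that of NonTg 2, where Fn1 alone held 277 CPM, and the next NonTg library summed to 82.1 CPM. Ly6c2 had 1 count in all, while Vcan had 342 counts in NonTg and 326 in P301S, and Ccr2 149 and 148. Border macrophage markers (8 of 8) summed to 9.87 to 81.8 and 19.7 to 48.9 CPM, and dendritic cell markers (6 of 6) to 16.9 to 126 and 13.7 to 73.0. These ranges overlapped between genotypes. Most genes of these lists were too low to test. Tested were 3 of 9 monocyte, 3 of 8 border macrophage, 3 of 6 dendritic and 1 of 12 neutrophil genes. None of those passed, where 3.87% of all tested genes were called.

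The libraries were not low together in all members. P301S 4 had the lowest level of its group for Csf1 (223 CPM), Csf1r (729), Csf2ra (235) and Csf3r (699), but not for Csf2rb (198) or Csf2rb2 (141). It also had the largest mitochondrial share, 32.1%. Its part in these values was not tested. P301S 5 was highest in its group for Csf1r, Csf2rb and Csf2rb2.

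Between genes, levels were compared on the authors' size-factor-adjusted RPKM, which is per transcript length. In NonTg the order of mean levels was Csf1r (62.5 ± 5.02), Csf3r (30.3 ± 5.78), Csf2ra (11.3 ± 3.69), Csf2rb2 (6.43 ± 4.25), Csf2rb (5.71 ± 1.75), Csf1 (1.23 ± 0.736) and Il34. Among these neighbours the ranges of Csf2ra and Csf2rb2, and of Csf2rb2 and Csf2rb, overlapped. In P301S the order was Csf1r (49.7 ± 8.63), Csf3r (42.2 ± 6.54), Csf2ra (26.6 ± 2.89), Csf1 (13.8 ± 1.15), Csf2rb (8.51 ± 2.40), Csf2rb2 (6.30 ± 1.32) and Il34 (SD, n = 6 each). There the ranges of Csf1r and Csf3r overlapped, as did those of Csf1 and Csf2rb, and of Csf2rb and Csf2rb2. Csf1 was below Csf2rb and Csf2rb2 in 6 of 6 NonTg libraries and above them in 6 of 6 P301S libraries. Among the 10022 tested genes the mean level of Csf1 ranked 5671 in NonTg and 404 in P301S. Csf2ra ranked 542 and 167, Csf3r 151 and 87, and Csf1r 63 and 73.

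**Figure D3:**
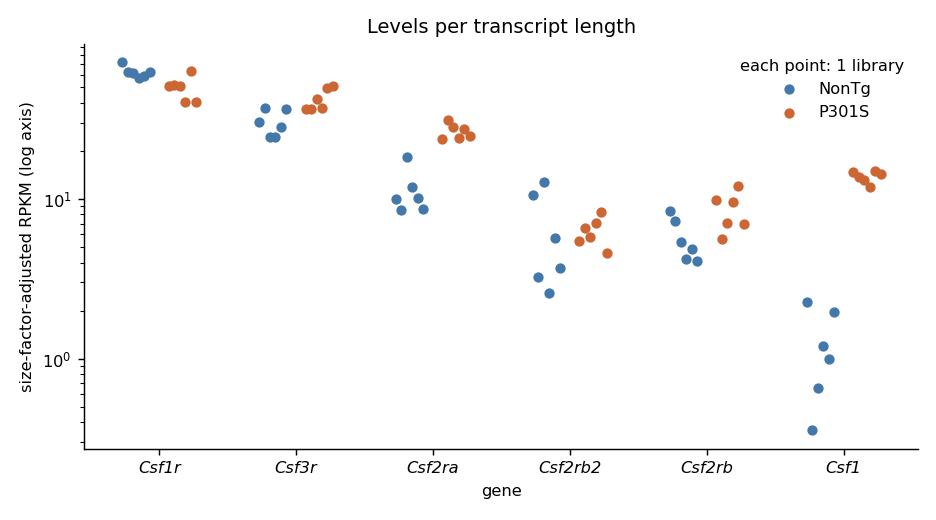
Size-factor-adjusted RPKM (vertical log axis) of 6 members in every library, with 1 point per library. Il34 is left out because 10 of its 12 values are 0. Csf1 lies lowest in NonTg and above Csf2rb2 in P301S.

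Ratios of 2 genes within a library do not depend on scaling between libraries, and 6 were tested. Each test was exact and two-sided, permuting genotype over all 924 assignments, with p-values adjusted over the 6. The log2 ratio of Csf1 to Csf1r counts was -5.85 ± 0.94 in NonTg and -1.79 ± 0.20 in P301S (SD, n = 6 each). It was higher in 6 of 6 P301S libraries than in any NonTg library, a difference of 4.06 (exact p = 0.00216, adjusted 0.00260). That p is the smallest these assignments can give. The ratio of Csf2ra to Csf1r was higher by 1.63 (-3.42 ± 0.45 to -1.79 ± 0.21) and that of Csf3r to Csf1r by 0.83 (-1.02 ± 0.25 to -0.18 ± 0.30). Both were without overlap, with the same exact permutation p of 0.00216 and adjusted p of 0.00260. In these libraries the receptors thus differed from Csf1r in their change, whatever the scaling. The ratios were chosen with earlier results of these data known, so they and their p-values are descriptions.

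Csf1r was also set against 2 homeostatic microglial receptor genes. Its log2 ratio to P2ry12, a purinergic receptor gene, was 0.64 ± 0.32 in NonTg and 2.40 ± 0.59 in P301S (SD, n = 6 each), higher by 1.76. Its ratio to Cx3cr1, the fractalkine receptor gene, was -1.32 ± 0.40 and -0.45 ± 0.17, higher by 0.87. All 6 P301S libraries were above all NonTg libraries in both (exact permutation p = 0.00216, adjusted p = 0.00260 each). Csf1r transcripts were thus more abundant relative to P2ry12 and Cx3cr1 in P301S, but Csf1r itself was not higher (log2 fold change -0.33). Both partners fell, P2ry12 by a log2 fold change of -2.02 (edgeR adjusted p = 3.70e-06) and Cx3cr1 by -1.24 (2.88e-05). They were chosen as partners with earlier results of these data known, so both ratios are descriptions and show no gain of Csf1r.

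The ratio of Csf2rb to its partner Csf2ra was 0.12 ± 0.63 in NonTg and -0.59 ± 0.51 in P301S (SD, n = 6 each). The groups overlapped, and the difference of -0.71 did not pass (exact permutation p = 0.0628, adjusted p = 0.0628). It passed without NonTg 3 (-0.86, adjusted p = 0.0325), NonTg 4 (-0.81, 0.0411) or P301S 5 (-0.81, 0.0455).

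**Figure D4:**
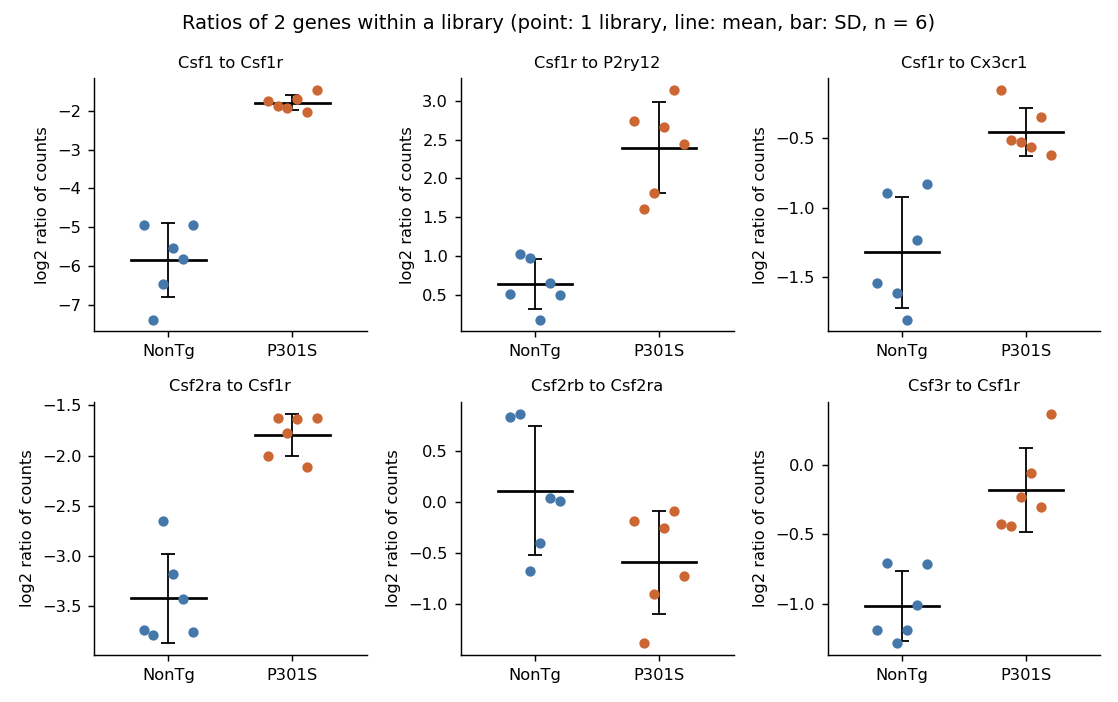
Log2 ratio of the counts of 2 genes within each library (vertical axes), with the mean and SD of 6 libraries per genotype. In 5 of the 6 ratios every P301S library lies above every NonTg library, and Csf2rb to Csf2ra overlaps.

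The other ligands of these receptors were at or near the lower end of detection. Csf2, which encodes the ligand of Csf2ra and Csf2rb, had no count in any library. Csf3, the ligand gene of Csf3r, had 66 counts in NonTg and 61 in P301S and reached 11.4 CPM in the highest library. Il3 had 4 counts in all and Il5 had 6. Il3ra, the binding subunit for interleukin-3, measured 2.93 ± 5.58 CPM in NonTg and 18.5 ± 8.99 in P301S (SD, n = 6 each), a log2 fold change of 2.58 ± 0.91 (SE) that did not pass (edgeR adjusted p = 0.118). Without NonTg 2 it was 4.80 with an adjusted p of 0.00463, and DESeq2 gave an adjusted p of 0.0470. In all, Il3ra was called in 6 of 21 settings. Adam17, a sheddase that cleaves Csf1r, had a log2 fold change of 0.29 ± 0.23 (0.607) and Ptprz1, a phosphatase that can bind Il34, one of -0.14 ± 0.48 (0.935). None of the 3 tested genes of this list of 9 passed with edgeR.

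Of 32 tested genes of Csf1r signalling reported, 1 rose, 1 fell and 30 did not pass, where 3.87% of all tested genes were called. So few calls are near that background. The list had a median log2 fold change of 0.10 beside -0.02 over all genes. Fgr, a Src-family kinase gene, rose in P301S, with 2.38 ± 3.08 CPM in NonTg and 93.7 ± 33.5 in P301S (log2 fold change 5.21 ± 0.59, edgeR adjusted p = 1.20e-06), with values of 2.41 to 6.34 over 21 settings, the highest without NonTg 1 and the lowest with adjusted RPKM plus 1. Pik3r1, encoding a regulatory subunit of phosphoinositide 3-kinase, fell from 404 ± 28.0 to 229 ± 60.2 CPM (-0.82 ± 0.20, adjusted p = 0.0137), and the call was lost without P301S 6 (-0.74, 0.0522). Sla, encoding an adaptor that lowers receptor signalling, measured 188 ± 53.8 and 110 ± 29.2 CPM (-0.77 ± 0.25) and did not pass (0.0825, and 0.0348 with DESeq2). Shc1, encoding an adaptor of receptor kinases, measured 8.28 ± 3.02 CPM in NonTg and 24.4 ± 19.0 in P301S (1.54 ± 0.57) and did not pass with edgeR (adjusted p = 0.138), while DESeq2 gave an adjusted p of 0.0438.

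Among the Jak-Stat and survival genes used by Csf2rb and Csf3r, Jak2, the kinase that binds Csf2rb, had a log2 fold change of 0.40 ± 0.34 (SE) and Jak1 one of -0.27 ± 0.25, and neither passed (edgeR adjusted p = 0.653 and 0.685). Bcl2l1, a survival gene, had 1.09 ± 0.70 (0.501), and 2.50 without NonTg 3 (0.0230). Stat5a, a transcription factor gene activated by these receptors, averaged 13.2 ± 10.4 CPM in NonTg against 7.78 ± 5.72 in P301S and missed the threshold (-0.75 ± 0.74, adjusted p = 0.715).

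Among 9 tested of 10 regulators of Csf1r, Egr2, encoding a zinc finger factor, rose, with 1.49 ± 2.03 CPM in NonTg and 43.1 ± 32.3 in P301S (log2 fold change 4.63 ± 0.72, edgeR adjusted p = 1.42e-04), and the list median was 0.03. Its log2 fold change was 1.57 to 5.90 over 21 settings, the highest without NonTg 6 and the lowest with adjusted RPKM plus 1. It was the 1 gene of the 9 that was called, beside 3.87% of all tested genes. Irf8 (0.54 ± 0.24, adjusted p = 0.252), Cebpa (1.59 ± 0.77, 0.313) and Fli1 (-0.43 ± 0.29, 0.521), all myeloid transcription factor genes, did not pass.

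Of 25 other cytokine receptors 17 were tested and 0 passed with edgeR at the adjusted threshold, where 3.87% of all tested genes did, with a median log2 fold change of -0.35. The smallest p-values were those of Il7r (-2.43 ± 0.83, edgeR adjusted p = 0.137), Il6ra (-0.49 ± 0.20, 0.191), Ifnar1 (0.60 ± 0.25, 0.204) and Ifngr1 (-0.59 ± 0.29, 0.335). Il7r, the interleukin-7 receptor gene, passed without P301S 5 (-3.68, 0.00181) and with limma voom (-3.77, 0.00262). In all it was called in 5 of 21 settings. At an unadjusted p under 0.05 there were 3 of the 17, beside 15.7% of all tested genes, and DESeq2 called 0 of the 17, beside 7.4%. These counts are near the background.

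**Figure D5:**
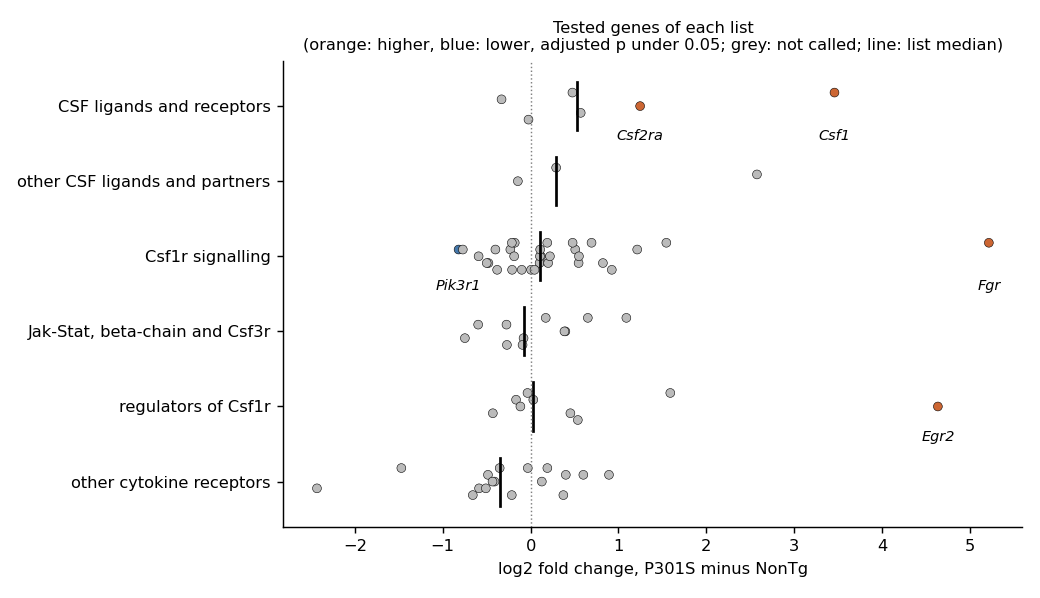
Log2 fold change (horizontal axis, P301S minus NonTg) of the tested genes reported from each list, 1 point per gene, with the list median as a line. Csf1, Csf2ra, Fgr and Egr2 are the drawn genes called higher and Pik3r1 the 1 called lower.

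The genes whose log2 CPM followed Csf1 most closely over the 12 libraries were Ctsb (Pearson r = 0.965), Lgals3bp (0.961), Gas2l3 (0.957), Cd63 (0.956) and Cd74 (0.945). All 5 were higher in P301S, with log2 fold changes of 2.06 to 3.78, so r includes the genotype difference. Ctsb, Lgals3bp and Cd63 belong to the list of disease-associated genes. After each genotype's mean was taken off, the same 5 had r of 0.681, 0.513, 0.629, 0.610 and 0.837. Csf1r was followed most closely by Tuba1a (0.936), Esrra (0.918), Gm33023 (0.900), Plxna4 (0.896) and Entrez gene 102642584 (0.895), with r of 0.788 to 0.939 after the genotype means were taken off. These values describe 12 libraries that share scaling, and the genes were picked as the closest among 10022.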

How the data were processed

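The deposited tables, 1 per library, hold counts of reads aligned uniquely to each gene model and, per the file headers, RPKM after a size-factor adjustment by the authors. Alignment with GSNAP and build GRCm38 are named in the submitters' processing notes. The sources used here do not give the counting tool, annotation release, read length or strandedness, so reads of overlapping genes cannot be told apart. Entrez numbers were paired with symbols of a RefSeq table (GRCm38.p6) for 31049 of 36528 numbers. The genotype label set the groups, and replicate numbers follow record order and pair nothing. No 2 libraries of a group agreed within counting noise. Totals per library were 1196069 to 4145069 counts.

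Genes were filtered with filterByExpr (minimum count 10), which kept 10022, scaled by TMM and tested with edgeR 4.0.16 (R 4.3.3, robust quasi-likelihood, no covariate). P-values were adjusted by Benjamini-Hochberg over all tested genes, with a threshold of 0.05. Standard errors were derived from the log2 fold change and its F statistic. Log2 CPM used a prior count of 2, and ratios added 0.5 to each count. Alternatives used DESeq2 1.42.0 and limma 3.58.1, other factors and filters, and each library left out. The tests were also run on simulated negative binomial counts, and the outcome of that run is not reported here. Members, gene lists and ratios were chosen with earlier results of these data known. Named genes were all members, the called genes and the 4 smallest p-values of each pathway list, the ratio partners, Itgam and the 5 genes most like Csf1 and Csf1r. Gfap, Clec7a and single markers were named after their values were seen. Some genes of the pathway lists are not reported here, and counts and medians of those lists leave them out.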

Additional observations from a re-analysis of the deposited data

Results flagged for a closer look

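In NonTg, 1 Csf2ra value stood apart: the library NonTg 3 held 181 CPM, and its distance to the next library was large for a group of 6 (gap over range 0.663, above the 95% critical value of Dixon). It was the 1 value so marked among 24 group checks of member levels and log2 ratios, where chance marks about 1 in 20. Without NonTg 3 the log2 fold change of Csf2ra was 1.44, against 1.25 with it.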

How the results depend on the processing

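Csf1 and Csf2ra remained the 2 members called under all 21 settings. Their log2 fold changes ranged from 2.79 to 3.72 and from 1.19 to 1.44, the lowest Csf1 value coming from adjusted RPKM plus 1. Csf1r, Csf2rb and Csf3r kept their direction and were not called in any. Csf2rb2, never called, turned sign without the low-count filter (0.064), with 1 CPM in 6 libraries (0.024), limma voom (0.26) and adjusted RPKM plus 1 (0.15) or plus 0.1 (0.20), and ranged from -0.18 to 0.28 on leaving out 1 library. Ptprz1 turned sign on leaving out NonTg 5, P301S 5 or P301S 6, with a range of -0.43 to 0.27. The 388 calls over all genes became 742 with DESeq2 and 1063 without the filter, where 38.7% were higher against 61.3%, the median of all genes moved from -0.02 to -0.25 and Pik3r1 was not called (-0.74). The Csf2rb to Csf2ra ratio ranged from -0.86 to -0.55 on leaving out 1 library and passed in 3 of those 12. The other 5 ratios passed with each pseudocount and each library left out. The cause of these shifts was not tested. No paired analysis was possible because the labels give no replicate numbers. At 8 counts in all, Il34 could not be tested at this depth.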
